A study of Mus musculus with 4 samples.

Results

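The response of 10 target genes of the transcription factor p53 to aristolochic acid I (AAI) was followed through the segments and cell types of the mouse kidney cortex. The genes, *Mdm2*, *Cdkn1a*, *Trp53inp1*, *Ccng1*, *Zmat3*, *Phlda3*, *Eda2r*, *Btg2*, *Sesn2* and *Rrm2b*, were taken by name from a table of 19609 genes. The rule used no measured value, but the list was drawn up with earlier results of these data known. The table held the mean expression of each gene in each of 23 clusters of nuclei for each of 4 mice, from single-nucleus RNA sequencing. The 4 mice were a control mouse, a control mouse given AAI, a mouse with global overexpression of human KLF6 (hKLF6OE) and an hKLF6OE mouse given AAI.

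All 4 mice were males of mixed strain on a doxycycline diet, and kidney cortex was taken from each. The control mice carried *TRE-hKLF6* alone, and the hKLF6OE mice carried *CAG-rtTA* with *TRE-hKLF6*, in which a ubiquitous promoter drives the doxycycline-dependent activator. The transgene was therefore not restricted to the proximal tubule (PT). AAI, a plant nephrotoxin that forms DNA adducts, was given as a single injection the day before the kidneys were taken, and the other mice were labelled as having no injury. The human transgene is not a row of the table, so its level was not checked here. With 1 mouse per condition, no difference between conditions has a replicate check, and no test was made.

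p53 is held at a low level by the ubiquitin ligase Mdm2 and accumulates when DNA is damaged. It then switches on genes that stop the cell cycle, repair DNA, adjust metabolism or lead to apoptosis, and it also switches on *Mdm2*, which closes a negative feedback loop. In the kidney, AAI enters tubular cells through organic anion transporters of the PT, and the PT is the best-known site of its toxicity.

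p53 binds pairs of a 10-base element, the p53 decamer, which reads the same on both strands. Promoter windows of 300 bases, from 250 before to 50 after an annotated start, were available from RefSeq (GRCm38.p6) for 7 of the 10 genes, not for *Trp53inp1*, *Zmat3* and *Rrm2b*. Across all 32851 mouse windows, 8.36% held at least 1 decamer without a mismatch, and 0.067% held 2 decamers with no spacer and at most 1 mismatch. The windows of *Cdkn1a*, *Ccng1* and *Mdm2* are shown because they were the 3 of 8 windows of these genes with a decamer. Capitals mark decamers without a mismatch and, in *Cdkn1a* and *Ccng1*, the contiguous pair with 1 mismatch. The windows lie at chr17:29090729-29091028 on the plus strand, and at chr11:40755237-40755536 and chr10:117710709-117711008 on the minus strand.
Cdkn1a: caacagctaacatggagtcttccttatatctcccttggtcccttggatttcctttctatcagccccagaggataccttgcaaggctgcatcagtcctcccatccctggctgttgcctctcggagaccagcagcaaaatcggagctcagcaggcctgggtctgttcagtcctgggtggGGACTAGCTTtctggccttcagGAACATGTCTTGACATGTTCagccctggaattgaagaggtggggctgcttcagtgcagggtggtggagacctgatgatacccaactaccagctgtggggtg
Ccng1: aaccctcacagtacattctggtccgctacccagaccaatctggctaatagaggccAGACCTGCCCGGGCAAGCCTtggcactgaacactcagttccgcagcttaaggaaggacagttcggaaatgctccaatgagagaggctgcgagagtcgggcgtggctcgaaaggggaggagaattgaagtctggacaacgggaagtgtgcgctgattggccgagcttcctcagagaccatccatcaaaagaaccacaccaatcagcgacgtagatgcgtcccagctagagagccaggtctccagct
Mdm2: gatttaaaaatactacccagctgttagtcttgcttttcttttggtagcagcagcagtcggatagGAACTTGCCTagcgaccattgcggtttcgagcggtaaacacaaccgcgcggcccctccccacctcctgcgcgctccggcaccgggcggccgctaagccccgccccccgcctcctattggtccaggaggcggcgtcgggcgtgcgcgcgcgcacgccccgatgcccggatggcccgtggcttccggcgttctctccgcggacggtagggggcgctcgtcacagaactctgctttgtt
In *Cdkn1a* the pair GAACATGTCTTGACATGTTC lay at positions -51 to -32 from the upstream of 2 annotated starts and 2822 bases before the downstream one. A further decamer in that window made an exact pair with the first of these when a spacer of up to 13 bases was allowed, which 0.0731% of all windows held. In *Ccng1* the pair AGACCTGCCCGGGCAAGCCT lay at positions -195 to -176 from the start. These are matches of letters only, since p53 binding was not measured.

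Values were mean counts per 10000 per nucleus, and every column of the table summed to 10000. Differences were taken on the log2(value + 1) scale, which understates the change of low genes. A rise or a fall means a difference of at least 0.2 with a value of at least 0.5 in 1 of the 2 mice compared. A gene under 0.5 in the uninjured mouse can therefore count as a rise with AAI but never as a fall. The PT had 7 clusters. Of these, 5 are the normal segments PT-S3-1, PT-S1-S2-1, PT-S1-S2-2, PT-S3-2 and PT-S3-3, and 2 are the injured clusters InjuredPT-A and InjuredPT-B. The columns carried cluster numbers only, and the names follow the order of the study's marker lists.

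The number of nuclei behind each column and its depth are unknown. The percentage of genes at 0 gives a rough sign of it. This ran from 15.1% to 23.1% in the normal PT of the uninjured mice and up to 31.3% with AAI, and reached 63.4% among the other clusters. InjuredPT-A had 62.6% of genes at 0 in the uninjured control mouse and 40.8% in the uninjured hKLF6OE mouse. How many nuclei its uninjured values rest on is unknown, and the study placed both injured clusters almost only in AAI-treated mice. The cluster was among 6 with over 50% at 0 in at least 1 mouse, with InjuredPT-B, IC-B-2, Macrophage, LH-DL and LH-AL-3.

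The cluster names were checked against marker lists. *Nphs1* was highest in the podocyte cluster, *Slc12a1* in LH-AL-1, *Slc12a3* in the distal convoluted tubule (DCT) and *Cd74* in the macrophage cluster. Of the 5 endothelial markers, all were highest in EC-2 and second in the macrophage cluster, not in EC-1. Of the 5 mesangial and stromal markers, *Pdgfrb* and *Col1a2* were highest in MC, the cluster named for mesangial cells, while *Itga8* was highest in the macrophage cluster, *Gata3* in CD_PC and *Meis2* in EC-2. The summed level of 18 PT markers in EC-1 was 79.0% of its level in the normal PT of the control mouse and 74.5% in the AAI-treated control mouse, and 76.5% and 75.0% in the hKLF6OE mice. In MC it was 79.6% and 70.8% in the control mice and 109.9% and 92.6% in the hKLF6OE mice. The MC sums were 265.0 and 204.9, and 335.8 and 224.5. *Kap* alone had a mean of 149.6 over the 4 mice in MC, and percentages without it were not taken. EC-2 had 69.2% and 58.8% in the control mice and 81.9% and 63.0% in the hKLF6OE mice. DCT_CNT had 66.1% and 63.3%, and 63.4% and 61.6%. The macrophage cluster had 67.9% and 45.8%, and 78.5% and 71.0%. Results over the 16 clusters outside the PT are therefore also given without EC-1 and the macrophage cluster, and without these and MC. These sets were chosen after the data were seen, and EC-2 and DCT_CNT were kept in them.

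Across all clusters, AAI was accompanied by higher *Mdm2*, *Trp53inp1* and *Ccng1* in every PT cluster of both genotypes, a pattern whose share over all genes was not taken. Counted over pairs of a gene and a cluster, the 10 genes gave 70 pairs in the PT, of which 45 reached the minimum value and 39 rose in control, and 49 reached it and 42 rose in hKLF6OE. Over all genes, 25.2% and 30% of the pairs that reached the minimum value did so. *Cdkn1a* and *Btg2* were near 0 in the uninjured PT, so each of their PT pairs that reached the minimum value was bound to rise. The all-gene shares also cover genes above the minimum in both mice. Outside the PT, the 10 genes gave 160 pairs, of which 87 reached the minimum value and 67 rose in control, and 95 reached it and 74 rose in hKLF6OE, against 28.6% and 32.3% of all pairs that reached it. Pairs that fell numbered 0 and 2 in the PT, against 21.4% and 22.7% over all genes, and 3 and 10 outside it, against 26.7% and 27.7%. Of the 10 genes, 5, *Mdm2*, *Trp53inp1*, *Ccng1*, *Zmat3* and *Btg2*, rose in the normal PT mean of both genotypes, against 7.66% of all genes tested. By contrast, *Cdkn1a* was concentrated in InjuredPT-A, *Phlda3* and *Eda2r* were low, and *Rrm2b* had opposite signs in the PT means of the 2 genotypes.

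**Figure D1:**
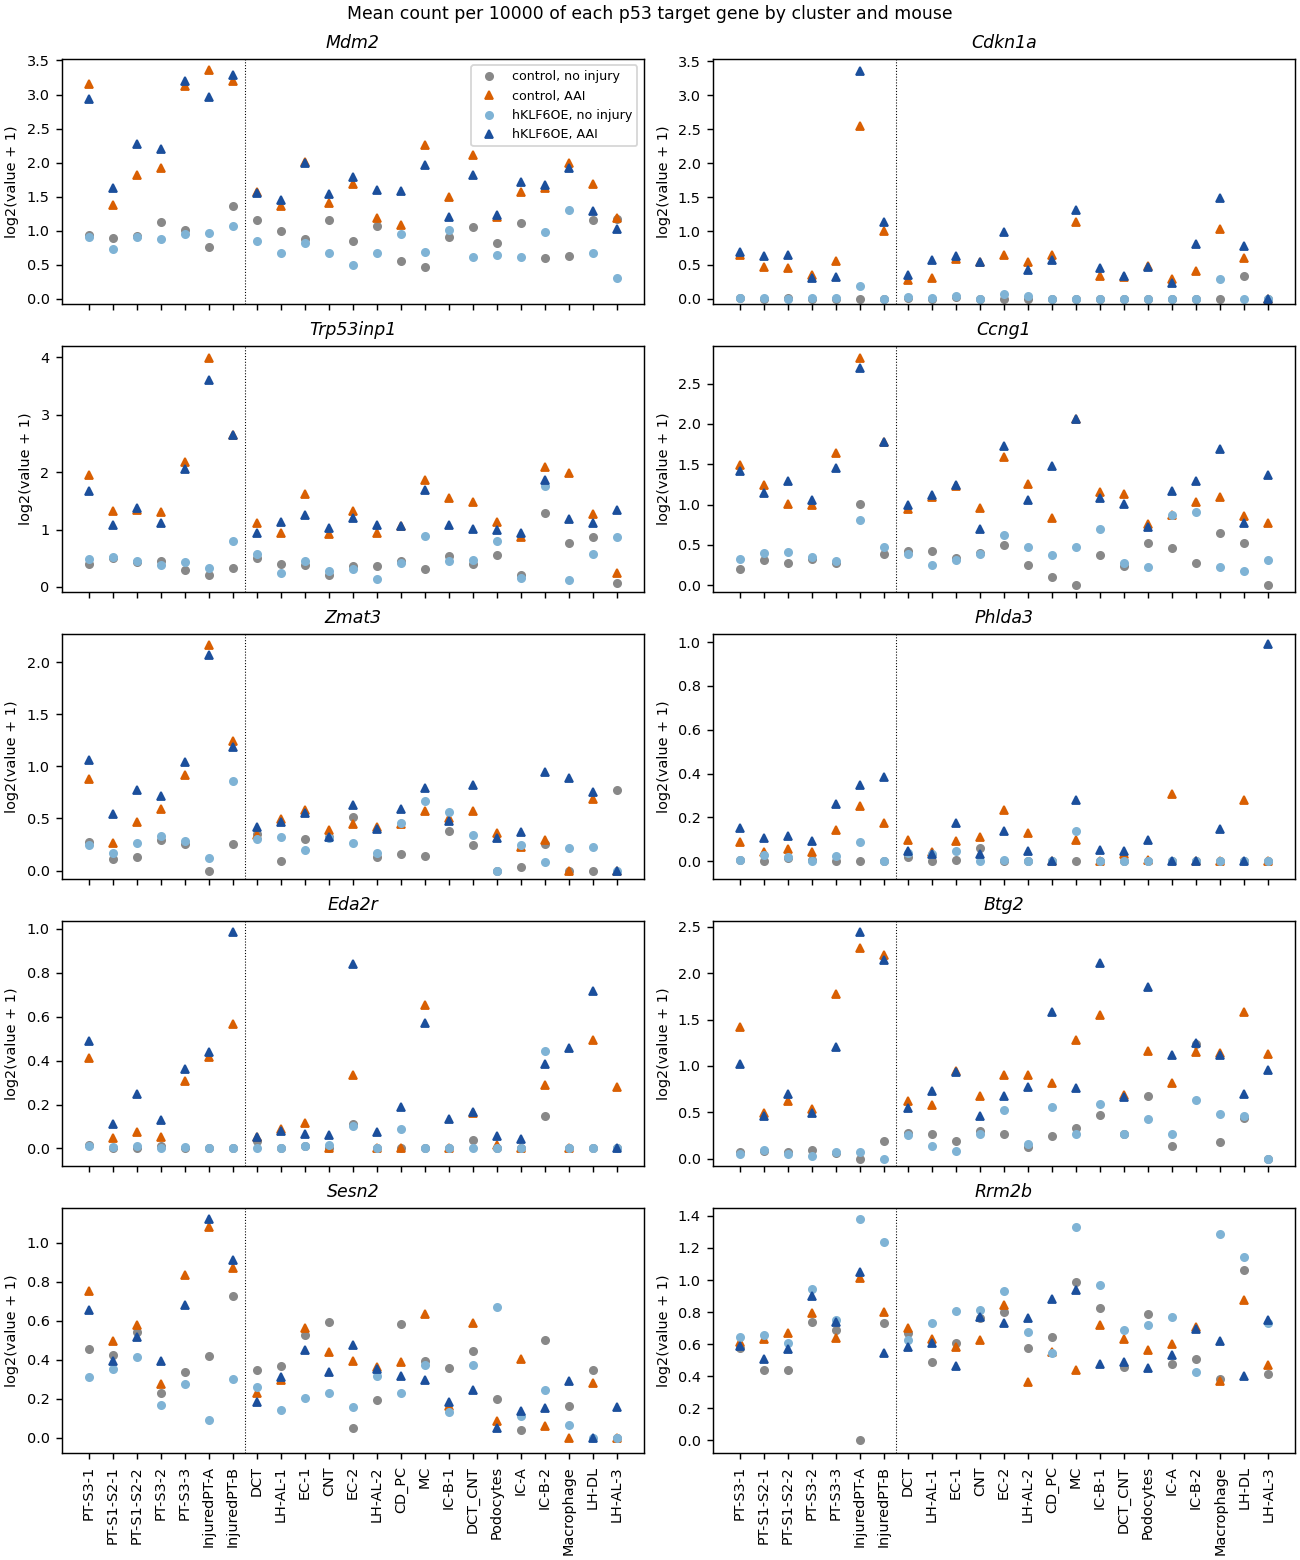
Level of each p53 target gene, as log2(value + 1) of the mean count per 10000, in the 7 PT clusters (left of the dotted line) and 16 other clusters of the 4 mice, 1 point per mouse. Triangles are AAI-treated mice and circles uninjured mice. *Mdm2* reached 6.65 to 9.32 in 4 PT clusters with AAI, and *Cdkn1a* reached 4.83 and 9.31 in InjuredPT-A.

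*Mdm2* (chr10:117688875-117710758, minus strand, GRCm38), the feedback inhibitor of p53, was expressed in every cluster of the uninjured mice. Among the PT clusters its value ranged from 0.699 to 1.57 in the uninjured control mouse and from 0.668 to 1.11 in the uninjured hKLF6OE mouse. With AAI, the clusters fell into 2 tiers. PT-S3-1 went from 0.911 to 7.89 in control and from 0.871 to 6.65 in hKLF6OE. PT-S3-3 went from 1.01 to 7.69 and from 0.934 to 8.16. InjuredPT-B reached 8.18 and 8.79, and InjuredPT-A 9.32 and 6.77. The other 3 PT clusters stayed lower in both AAI-treated mice, with no overlap with these 4. PT-S1-S2-1 had 1.61 in control and 2.08 in hKLF6OE, PT-S1-S2-2 had 2.54 and 3.83, and PT-S3-2 had 2.79 and 3.60. The difference with AAI was 2.22 and 2.03 in PT-S3-1 but 0.49 and 0.88 in PT-S1-S2-1. PT-S3-2, which shares the S3 label, had differences of 0.79 and 1.32, closer to the S1-S2 clusters than to PT-S3-1 and PT-S3-3. Outside the PT, MC went from 0.385 to 3.79 in control and from 0.607 to 2.89 in hKLF6OE. The summed PT markers of MC were 70.8% and 92.6% of the normal PT level in the same AAI-treated mice, and their part in this value was not tested. The loop of Henle clusters of the AAI-treated mice were lower, between 1.04 in LH-AL-3 and 2.20 in LH-DL. *Mdm2* rose in 14 of the 16 other clusters in control and in 15 in hKLF6OE.

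*Cdkn1a* (chr17:29090976-29100727, plus strand) encodes p21, an inhibitor of cyclin-dependent kinases that arrests the cell cycle. It was at or near 0 without injury. In the uninjured control mouse it was at 0 or below 0.02 in all clusters except LH-DL, at 0.262, and in the uninjured hKLF6OE mouse its highest values were 0.222 in the macrophage cluster and 0.144 in InjuredPT-A. With AAI it was above 0 in 22 of 23 clusters of each genotype, the exception being LH-AL-3. InjuredPT-A stood apart from all other clusters, at 4.83 in control and 9.31 in hKLF6OE. The macrophage cluster had 1.04 and 1.81, MC had 1.20 and 1.47, and InjuredPT-B had 1.00 and 1.20. These were the next 3 in both mice. In the macrophage cluster 63.4% and 56.9% of genes were at 0 in the AAI-treated mice. The part of PT transcripts in its *Cdkn1a* values was not tested. The normal PT clusters had only 0.282 to 0.570 in control and 0.235 to 0.615 in hKLF6OE, which overlapped the values of the limb and principal cell clusters. Their mean was 0.418 and 0.445, against 0.452 and 0.596 for the 16 other clusters. A gene on the opposite strand, *AC167363.2*, overlaps *Cdkn1a*, and whether the counting used strand is not given in the sources used here.

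*Ccng1* (chr11:40748552-40755311, minus strand) encodes cyclin G1, which recruits a phosphatase to Mdm2. It rose in more clusters than any of the other 9 genes, in all 7 PT clusters and all 16 other clusters of both genotypes. How many of all genes rose in every cluster was not counted. InjuredPT-A had the highest PT value, at 6.07 in control and 5.47 in hKLF6OE, although it was already at 1.00 and 0.747 without injury. MC had the second highest value in both AAI-treated mice, going from 0 to 3.18 in control and from 0.384 to 3.16 in hKLF6OE. The normal PT clusters with AAI spanned 0.996 to 2.12 in control and 1.08 to 1.74 in hKLF6OE. EC-2 lay within that range in control, at 2.00, and above it in hKLF6OE, at 2.30. CD_PC, the principal cell cluster, lay below it in control, at 0.787, and above it in hKLF6OE, at 1.79.

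*Btg2* (chr1:134075170-134079120, minus strand), an antiproliferative gene of the immediate early class, had uninjured PT values of 0 to 0.139 in both genotypes. Without injury it was higher in several clusters outside the PT, with 1.36 in IC-B-2 and 0.594 in podocytes of the control mouse. With AAI, InjuredPT-A reached 3.84 in control and 4.44 in hKLF6OE, and InjuredPT-B 3.58 and 3.42. PT-S3-3 reached 2.41 in control but 1.31 in hKLF6OE, and PT-S3-1 1.68 and 1.02. As for *Mdm2*, PT-S3-1 and PT-S3-3 lay above the other 3 normal PT clusters in both mice. The highest values outside the PT were in the hKLF6OE mouse. IC-B-1 went from 0.502 to 3.33, and podocytes from 0.350 to 2.60.

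*Trp53inp1* (chr4:11156431-11174379, plus strand), whose product promotes p53-dependent apoptosis and autophagy, had the largest difference of any of the 10 genes in a single cluster. InjuredPT-A went from 0.151 to 14.9 in control and from 0.260 to 11.13 in hKLF6OE, differences of 3.79 and 3.27. The uninjured control value, 0.151, was the lowest value above 0 in its column, where 62.6% of genes were at 0. InjuredPT-B went from 0.262 to 5.25 and from 0.738 to 5.25. PT-S3-3 followed with 3.52 and 3.15 and PT-S3-1 with 2.87 and 2.19. The remaining 3 PT clusters lay between 1.11 and 1.58 in the AAI-treated mice. IC-B-2 had the highest level without injury, 1.44 in control and 2.39 in hKLF6OE, and 3.26 and 2.63 with AAI, so its difference was 0.81 in control and 0.10 in hKLF6OE.

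*Zmat3* (chr3:32334792-32366014, minus strand), which encodes an RNA-binding protein that regulates splicing and RNA stability, went from 0 to 3.50 in InjuredPT-A of control and from 0.0853 to 3.20 in hKLF6OE. The normal PT clusters with AAI had 0.202 to 0.888 in control and 0.454 to 1.09 in hKLF6OE, with PT-S3-1 and PT-S3-3 the highest in both mice. InjuredPT-B had 1.37 and 1.28, but its uninjured value was 0.811 in hKLF6OE against 0.194 in control. Among the 16 other clusters, *Zmat3* reached the minimum value in only 2 in control and 7 in hKLF6OE, and rose in 1 and 5 of these. It fell in LH-AL-3 of control, from 0.711 to 0, a column with many genes at 0.

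*Phlda3* (chr1:135766119-135769136, plus strand), an inhibitor of Akt signaling, and *Eda2r* (chrX:97333840-97377216, minus strand), a receptor of the tumor necrosis factor family, were low throughout. Neither reached the minimum value of 0.5 in any normal PT cluster. *Phlda3* had at most 0.190 in a PT cluster of the control AAI mouse and 0.306 in the hKLF6OE AAI mouse. Its value was nevertheless higher with AAI in all 7 PT clusters of both genotypes, though how many of all genes did the same was not counted. The only cluster in which it was counted was LH-AL-3 of hKLF6OE, where it went from 0 to 0.986. *Eda2r* was at 0.0101 or less in all 7 PT clusters of both uninjured mice. With AAI its highest PT value was in InjuredPT-B, at 0.479 in control and 0.981 in hKLF6OE, and PT-S3-1 had 0.330 and 0.402. PT-S1-S2-1 and PT-S3-2 had less than 0.1 in both AAI-treated mice. Outside the PT, MC had 0.574 and 0.486, LH-DL 0.407 and 0.640, and EC-2 0.260 and 0.790.

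*Sesn2* (chr4:132492032-132510501, minus strand) encodes sestrin 2, a stress protein that restrains mTORC1. In the uninjured mice its PT values were 0.174 to 0.655 in control and 0.0666 to 0.332 in hKLF6OE, lower in hKLF6OE in all 7 clusters. How many of all genes did the same was not counted. With AAI, InjuredPT-A reached 1.11 in control and 1.18 in hKLF6OE, PT-S3-3 0.781 and 0.604, and PT-S3-1 0.685 and 0.573. These 3 clusters rose in both genotypes. InjuredPT-B went from 0.655 to 0.830 in control and from 0.233 to 0.883 in hKLF6OE, so it rose in hKLF6OE only by the threshold used. Outside the PT, *Sesn2* reached the minimum value in only 4 of 16 clusters in control, of which 1, MC, rose. In hKLF6OE it reached it in 1, podocytes, where it fell from 0.591 to 0.0335. Its value, mostly under the minimum, was higher with AAI in 6 of the 16 clusters in control and 10 in hKLF6OE. The overlapping gene *Gm12981* lies on the same strand as *Sesn2*, and their reads may not be separable.

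*Rrm2b* (chr15:37923952-37961318, minus strand), the p53-inducible subunit of ribonucleotide reductase, which supplies deoxynucleotides for DNA repair, did not follow the others. The normal PT clusters had 0.357 to 0.669 in the uninjured control mouse and 0.528 to 0.732 with AAI. In hKLF6OE they had 0.521 to 0.928 without injury and 0.421 to 0.868 with AAI. The 4 ranges overlapped. It rose in 2 PT clusters of control, PT-S1-S2-2 and InjuredPT-A, and fell in 2 of hKLF6OE, InjuredPT-A and InjuredPT-B. In InjuredPT-A it went from 0 to 1.02 in control and from 1.60 to 1.07 in hKLF6OE, so the AAI-treated values were alike and the uninjured ones were not. Outside the PT it fell in 2 of 16 clusters in control, and in hKLF6OE it fell in 9 and rose in 2, CD_PC and IC-B-2. *Gm3362* overlaps *Rrm2b* on the same strand, and *Gm49085* overlaps it on the opposite strand.

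The responses by cluster were then set against those of all genes. In the mean of the 7 PT clusters, 8 of the 10 genes were higher with AAI in control and 7 in hKLF6OE. Over all genes tested the share higher was 21.8% in control and 28.5% in hKLF6OE. The 7 genes that were higher in both, *Mdm2*, *Cdkn1a*, *Trp53inp1*, *Ccng1*, *Zmat3*, *Btg2* and *Sesn2*, compare with 13.9% of all genes tested. The median difference of the 10 was 0.98 in control and 1.00 in hKLF6OE, against 0.04 and 0.08 over all genes tested. *Rrm2b* was the remaining gene in control, with a difference of 0.21 that was 0.09 in the 5 normal PT clusters, and was lower in hKLF6OE, with a difference of -0.21, where 17.9% of all genes were lower. *Phlda3* and *Eda2r* did not reach the minimum value.

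**Figure D2:**
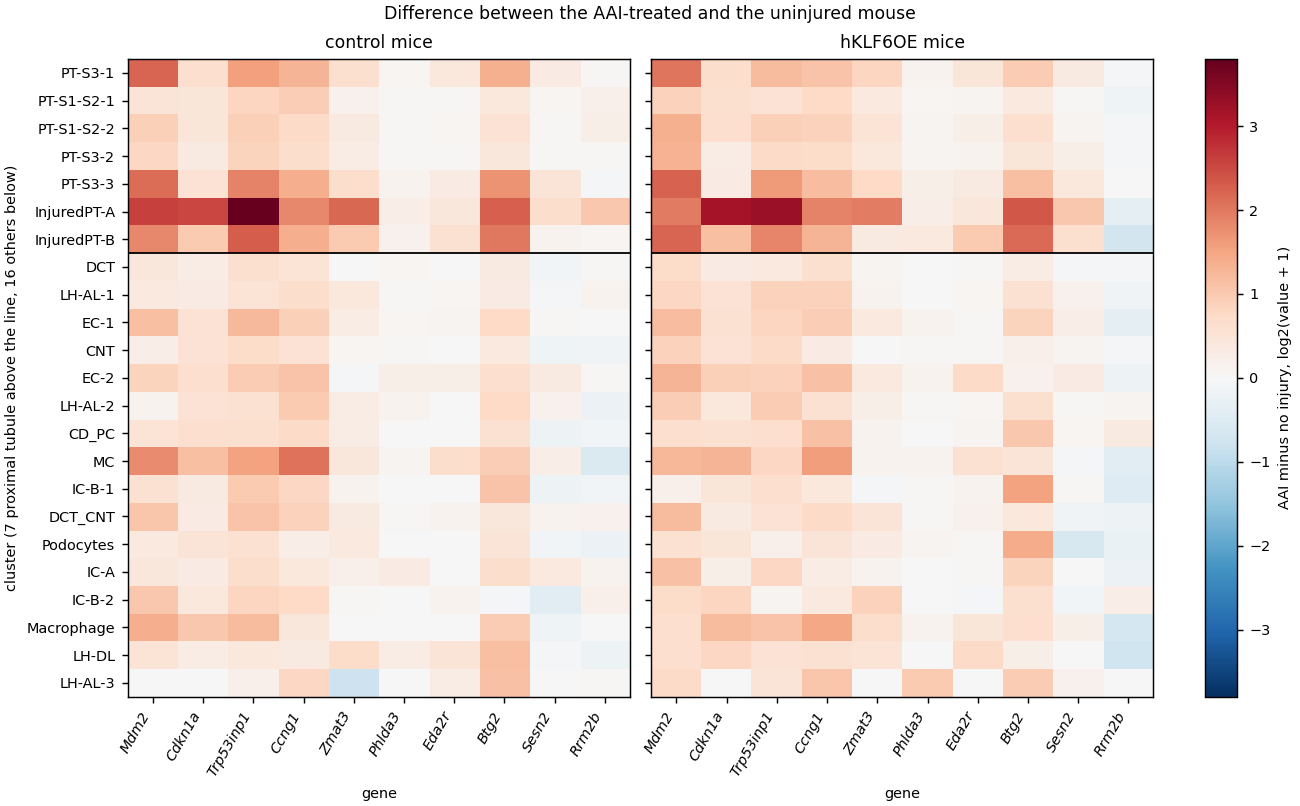
Difference between the AAI-treated and the uninjured mouse on the log2(value + 1) scale for the 10 genes (columns) in the 23 clusters (1 line each), control mice on the left and hKLF6OE mice on the right, red higher and blue lower with AAI. The darkest red, 3.79, is *Trp53inp1* in InjuredPT-A of control, and *Rrm2b* is blue in InjuredPT-B of hKLF6OE at -0.70.

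Cluster by cluster, the median difference of the 10 genes was highest in InjuredPT-A, at 1.99 in control and 1.92 in hKLF6OE. InjuredPT-B was second, at 0.99 and 1.06. Both were among the 6 clusters with over 50% of genes at 0 in at least 1 mouse. The study found both almost only in AAI-treated mice, so the nuclei compared in them may not be alike, and their ranks are a description. Of all genes tested, 45.7% in control and 46.3% in hKLF6OE were higher in InjuredPT-A, and 39.1% and 41.2% in InjuredPT-B. PT-S3-1 had 0.62 and 0.75, and PT-S3-3 had 0.61 and 0.58. PT-S1-S2-2 had 0.39 in control and, in hKLF6OE, 0.58, the same as PT-S3-3. PT-S1-S2-1 had 0.30 and 0.37, and PT-S3-2 had 0.32 and 0.34, which ranked 12 to 15 of the 23 clusters and below several clusters outside the PT. The 16 other clusters ranged from 0.03 to 0.80 in control and from 0.15 to 0.63 in hKLF6OE, with MC the highest in control and the macrophage cluster the highest in hKLF6OE. The median over all genes tested lay between -0.07 and 0.15 in every cluster of both genotypes.

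In the mean of the 16 clusters outside the PT, *Mdm2*, *Trp53inp1*, *Ccng1* and *Btg2* were higher with AAI in both genotypes, against 5.91% of all genes tested. The counts were 4 of 10 in control and 5 in hKLF6OE, where *Cdkn1a* was added, against 12% and 20% of all genes tested. The counts were also 4 and 5 without EC-1 and the macrophage cluster, and 4 and 4 without these and MC, sets for which the share of all genes was not taken. *Mdm2* went from 0.907 to 2.10 in control and from 0.700 to 2.06 in hKLF6OE. Without EC-1 and the macrophage cluster it had a difference of 0.62 in control and 0.84 in hKLF6OE, and without these and MC 0.52 and 0.80. *Ccng1* went from 0.278 to 1.21 and from 0.369 to 1.40. *Sesn2* passed from 0.258 to 0.247 in control and from 0.172 to 0.191 in hKLF6OE, all under the minimum value.

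PT transcripts were also found in these clusters. The summed level of the 18 PT markers in a cluster outside the PT was 20.1% to 74.5% of that in the normal PT in the AAI-treated control mouse, with a median of 34.2%, and 23.3% to 92.6%, with a median of 31.7%, in the AAI-treated hKLF6OE mouse. At most 2 of the 18 markers were at 0 in any of them. The most abundant were *Kap*, with a mean of 56.8 outside the PT and 47.8 in the normal PT of the AAI-treated control mouse, and *Keg1*, with 12.3 and 70.6. *Mdm2* outside the PT stood at 46.6% and 42.3% of the normal PT level in the AAI-treated mice. *Btg2* stood at 94.3% and 152%, and *Cdkn1a* at 108% and 134%. These are ratios of means, whereas the marker medians are over clusters, so they are not directly comparable. The normal PT level leaves out InjuredPT-A. That cluster held 11.5 and 20.9 times the normal PT level of *Cdkn1a*, and 3.50 and 5.93 times that of *Btg2*, in the same mice. The part of PT transcripts in the values outside the PT was not tested.

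The difference with AAI was larger in the PT mean than in the other mean, by at least 0.2 in both genotypes, for 7 of the 10 genes, against 6.91% of all genes tested. For *Trp53inp1* the PT difference was 2.06 in control and the other difference 0.84, and in hKLF6OE 1.72 and 0.61. For *Mdm2* the values were 1.73 and 0.70 in control and 1.82 and 0.85 in hKLF6OE. *Cdkn1a* had 1.09 and 0.51, and 1.46 and 0.64. This excess depended in part on the injured clusters. With the 5 normal PT clusters alone, the count was 3 of 10, *Mdm2*, *Trp53inp1* and *Zmat3*, against 4.42% of all genes tested. *Sesn2* kept an excess of 0.21 in control and 0.20 in hKLF6OE. It was not counted because its hKLF6OE means, at most 0.446, were under the minimum value. *Cdkn1a* then had a smaller difference in the PT than outside it, by -0.02 in control and -0.12 in hKLF6OE, while *Mdm2* kept an excess of 0.78 and 0.83. Without the 6 clusters with many genes at 0, the same 3 genes were counted, against 4.11% of all genes tested. Without EC-1 and the macrophage cluster, and without these and MC, the count was 7, against 7.03% and 7.35%.

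**Figure D3:**
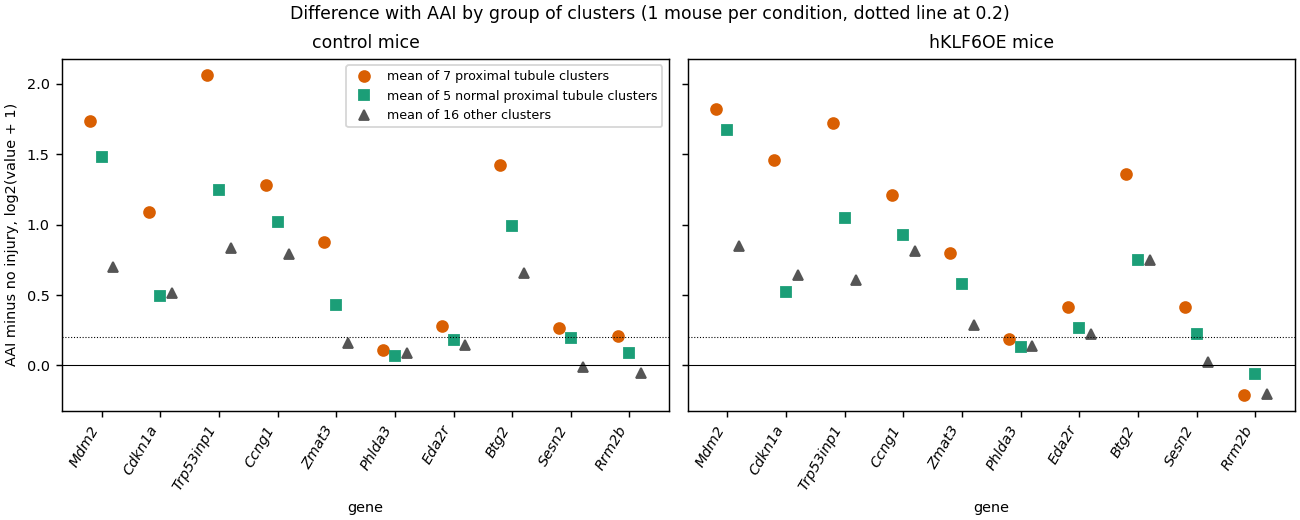
Difference with AAI of each gene on the log2(value + 1) scale in the mean of the 7 PT clusters (circles), the 5 normal PT clusters (squares) and the 16 other clusters (triangles), for control mice (left) and hKLF6OE mice (right), 1 mouse per condition. For *Cdkn1a* the square lies at or below the triangle in both genotypes, at 0.50 against 0.51 and at 0.52 against 0.64, and the circle lies well above.

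None of the 10 genes had all 7 PT responses above all 16 others in either genotype, and 0 of all genes tested did so. PT-S1-S2-1 and PT-S3-2 had the lowest PT difference for most genes, and for *Mdm2* in control 9 of the 16 other clusters exceeded the lowest PT cluster. The set formed by InjuredPT-A, InjuredPT-B, PT-S3-1 and PT-S3-3, which was noticed in the values and chosen after they were seen, exceeded the other 19 clusters for 3 genes in each genotype. These were *Mdm2*, *Trp53inp1* and *Btg2* in control, where 0.255% of all genes tested did so, and *Mdm2*, *Trp53inp1* and *Sesn2* in hKLF6OE, where 0.226% did. The set was drawn from the values of these genes, which favoured their count in advance. The count is therefore not read against these shares. The pattern depended on the scale. With a pseudocount of 0.1 in place of 1 it held for 0 of the genes in control and 1 in hKLF6OE. The share of all genes was not taken at that setting.

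The injured clusters were also set against the mean of the 5 normal PT clusters of the same AAI-treated mouse. Clusters were formed from gene expression, in which these genes may have had a part, so the differences are a description. In InjuredPT-A, 8 of the 10 genes were higher in both mice, against 43.3% of all genes tested, and in InjuredPT-B 7 were, against 23.4%. *Trp53inp1* was higher in InjuredPT-A by 2.33 in control and 2.10 in hKLF6OE, and *Cdkn1a* by 2.04 and 2.83. *Mdm2* differed less, by 0.91 and 0.41. In InjuredPT-B the largest differences were those of *Btg2*, 1.13 and 1.34, and *Trp53inp1*, 0.98 and 1.14, whereas *Cdkn1a* differed by 0.50 and 0.61. *Mdm2* differed by 0.74 in both mice. The values of *Cdkn1a*, *Trp53inp1*, *Ccng1*, *Zmat3*, *Btg2*, *Sesn2* and *Rrm2b* were higher in InjuredPT-A than in InjuredPT-B in both mice. The share of all genes with this order was not taken. More of all genes were above the normal PT in InjuredPT-A than in InjuredPT-B, so the order is not read as particular to these genes. *Eda2r* was the other way round, at 0.334 against 0.479 in control and 0.357 against 0.981 in hKLF6OE. For *Mdm2* and *Phlda3* the order of the 2 clusters differed between the mice.

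**Figure D4:**
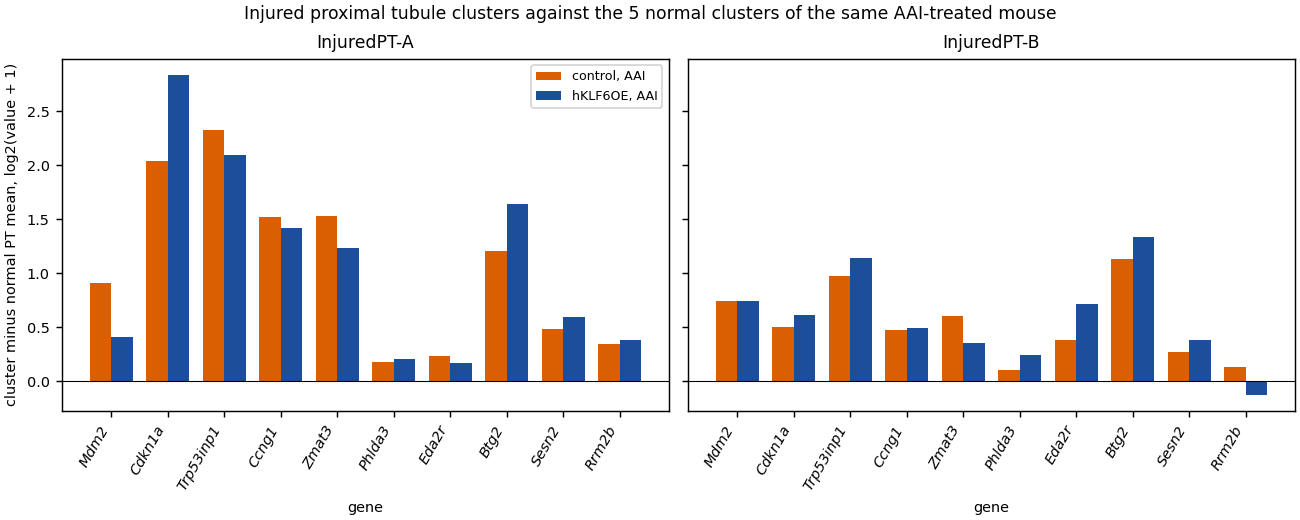
Difference of InjuredPT-A (left) and InjuredPT-B (right) from the mean of the 5 normal PT clusters of the same AAI-treated mouse, on the log2(value + 1) scale, as bars for the control mouse (orange) and the hKLF6OE mouse (blue). The tallest bars are *Cdkn1a* and *Trp53inp1* in InjuredPT-A, at 2.83 and 2.33, and *Rrm2b* in InjuredPT-B is at 0.13 and -0.12.

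Few of the 10 genes passed the threshold between genotypes. Without injury, 1 of 10 was higher in hKLF6OE in the PT mean, *Rrm2b*, at 0.891 against 0.450, and 10.9% of all genes tested were higher. The value of *Rrm2b* was higher in hKLF6OE in all 7 PT clusters, and its mean rests in part on InjuredPT-A, at 1.60 against 0. In the 5 normal PT clusters the difference was 0.15. None of the 10 was counted as lower in the PT mean, where 14% of all genes were, but of the 10 only *Mdm2* and *Rrm2b* reached the minimum value in this comparison. *Sesn2*, whose value was lower in hKLF6OE in all 7 PT clusters, did not. With AAI, *Cdkn1a* was higher in hKLF6OE, at 1.82 against 1.13, a difference of 0.40, and 6.12% of all genes were higher. *Trp53inp1* was lower, at 3.65 against 4.43, a difference of -0.22, and 7.71% were lower. In the 5 normal PT clusters the *Trp53inp1* difference was -0.16, under the threshold, and *Btg2* was lower instead, by a difference of -0.26, where 7.74% of all genes were lower. In the 5 normal PT clusters the *Cdkn1a* difference was 0.03, and InjuredPT-A alone had 9.31 against 4.83. *Mdm2* had 5.70 against 5.72. *Phlda3* and *Eda2r*, whose PT means were under the minimum value, had higher values in hKLF6OE with AAI in all 7 PT clusters. Clusters of 1 mouse are not replicates, and the shares of all genes with the same direction in all 7 were not taken.

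Other genes of the pathway gave a wider view. The 55 further genes listed for the p53 pathway were all in the table, and 19 reached the minimum value in the PT mean of each genotype. With AAI, 18 were higher in control, against 21.8% of all genes tested, and 0 were lower, against 14.3%. In hKLF6OE 15 were higher, against 28.5%, and 1, *Trim7*, was lower, against 17.9%. Of the 55, 17 reached the minimum value in both genotypes and 15 were higher in both, against 13.9% of all genes tested. The 55 genes had a median difference of 0.21 in control and 0.23 in hKLF6OE. By the smaller of the differences in the 2 genotypes, the largest rises were those of *Gdf15*, *Dglucy*, *Polk*, *Tob1* and *Rnf169*. *Gdf15*, a secreted stress cytokine, went from 0.0898 to 1.90 in control and from 0.0944 to 1.17 in hKLF6OE. *Polk*, a translesion DNA polymerase that can pass bulky adducts, went from 0.477 to 1.76 and from 0.322 to 2.08. *Dglucy* went from 1.56 to 3.93 and from 1.46 to 4.00. Proapoptotic *Bax* and *Apaf1* were among the 15. In InjuredPT-A against the normal PT, 26 of the 55 reached the minimum value in both mice and 18 were higher in both, against 43.3% of all genes tested, among them *Fas*, *Pmaip1*, *Perp* and *Gadd45a*. The 5 lower in both were *Sesn1*, *Pvt1*, *Dglucy*, *Exoc4* and *Rnf169*, and 27% of all genes tested were lower.

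Transcripts of p53 itself and of its regulators moved less. *Trp53* had a PT mean of 0.290 without injury and 0.445 with AAI in control, and 0.240 and 0.307 in hKLF6OE, under the minimum value in all 4. In InjuredPT-A of the AAI-treated mice it was at 1.29 in control and 0.776 in hKLF6OE, higher than the normal PT in both. Of 17 genes in this list, 10 reached the minimum, and 2 were higher with AAI in both genotypes, against 13.9% of all genes tested. These were *Atr*, a kinase of the replication stress response, which went from 0.836 to 1.31 in control and from 0.841 to 1.18 in hKLF6OE, and *Rchy1*, a ubiquitin ligase of p53, from 0.630 to 0.962 and from 0.662 to 0.922. In hKLF6OE 6 were higher, against 28.5% of all genes tested, with *Mdm4*, *Ep300*, *Crebbp* and *Cop1* in addition. *Prkdc* and *Hipk2* were lower in control. Of the genes that reached the minimum value in both genotypes, those with a negative difference in both, *Prkdc* and *Trp53bp1*, had -0.27 and -0.10 in control and -0.05 and -0.03 in hKLF6OE.

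Across the 92 columns, the 10 genes followed one another to differing degrees. Pearson's r of a gene with the mean of the other 9, on log2(value + 1), was 0.89 for *Trp53inp1*, 0.87 for *Ccng1*, 0.84 for *Mdm2* and *Cdkn1a*, 0.83 for *Zmat3* and 0.76 for *Btg2*. It was 0.68 for *Eda2r*, 0.56 for *Sesn2* and 0.49 for *Phlda3*, and 0.05 for *Rrm2b*. The columns share 4 mice and differ in depth, and the share of all genes with such values was not taken, so these are descriptions. Among 11434 other genes, those most like the mean of the 10 were *Cxcl1* (r = 0.89), a chemokine that attracts neutrophils, *Fam212b* (0.86), *Plk2* (0.84), *Polk* (0.84), *Mybl1* (0.83), *Aen* (0.82), *Prrg4* (0.82), *Aaas* (0.82), *Zfp36* (0.81) and *Rap2b* (0.81). Of these, *Plk2*, *Polk*, *Aen* and *Rap2b* are among the 55 listed pathway genes. *Cxcl1* had a PT mean of 0.0330 and 0.0677 in the uninjured mice and 2.02 and 2.16 with AAI, against 0.321 and 0.437 outside the PT with AAI. *Aen*, an exonuclease of apoptosis, had 0.0294 and 0.106 without injury and 0.598 and 1.12 with AAI.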

How the data were processed

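Nuclei of kidney cortex from 4 mice were sequenced, and the authors processed the reads with Cell Ranger against a mouse pre-mRNA reference (mm10) and clustered the nuclei with Seurat. The deposited table holds a mean expression signal per gene, cluster and mouse. Its columns sum to 10000, so the values were read as mean counts per 10000 per nucleus on a linear scale. The function that made the means, the nuclei per column and whether doublets were removed are not given in the sources used here. All 92 columns (23 clusters, 4 mice) were mapped to samples, and 0 were left over. Of 19632 gene names, 23 had become dates and were left out.

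Differences were taken as log2(value + 1) with a minimum value of 0.5 on 1 side and a threshold of 0.2, over all genes, in means of 7 proximal tubule, 5 normal proximal tubule or 16 other clusters (Python 3.11.15, numpy 2.4.6, pandas 2.3.3, matplotlib 3.10.9). The scripts were tested on simulated data. With 1 mouse per condition there is no SD, interval or p-value. The sequencing depth per column is unknown.

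The 10 genes are named in every comparison. From 55 further p53 pathway genes and 17 regulators, up to 5 largest rises and 3 largest falls shared by both genotypes and *Trp53* are named, with the 10 genes most correlated with the members over all columns and the 2 proximal tubule markers most abundant elsewhere. *Bax*, *Apaf1*, *Fas* and the other genes named beside a count were chosen after their values were seen. Cluster markers covered proximal tubule, podocyte, ascending and descending limb, distal convoluted tubule, connecting tubule and principal cell, intercalated, endothelial, mesangial and macrophage lists. The members and lists were chosen with earlier results of these data known. Gene positions came from GENCODE (GRCm38) and promoter windows from RefSeq (GRCm38.p6). Other pseudocounts, minimum values, thresholds, cluster sets and scalings were tried as alternatives.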

Additional observations from a re-analysis of the deposited data

Results flagged for a closer look

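*Rrm2b* in InjuredPT-A moved in opposite directions with AAI in the 2 genotypes. The difference on the log2(value + 1) scale was 1.01 in control and -0.33 in hKLF6OE, and the difference between them was not tested. The AAI-treated values were 1.02 and 1.07, and the uninjured ones 0 and 1.60, in columns where 62.6% and 40.8% of all genes were at 0. The part of these zeros in the result was not tested.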

How the results depend on the processing

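Each condition is 1 mouse, and the nuclei behind a column are unknown, so the values describe these mice. The counts depend on how low values are treated, since most of these genes lie under 1 count per 10000 in most clusters. No paired analysis was possible because each group holds 1 mouse.

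At a minimum value of 2, the genes higher with AAI in the PT mean numbered 3 in control and 3 in hKLF6OE, those in the other mean 1 and 1, those with a larger PT response 3, those higher in InjuredPT-B 4, and the further pathway genes 6. With no minimum, the further pathway genes numbered 25. At a threshold of 1, the counts were 5 for the PT mean in control, 0 and 0 for the other mean, 1 for the larger PT response, 5 for InjuredPT-A, 1 for InjuredPT-B and 0 for the further pathway genes. At 0.5 they were 5 for InjuredPT-A and 3 for InjuredPT-B. Shares of all genes were not taken at these minimum values and thresholds, so the counts show only how the calls depend on the setting. With the 5 normal PT clusters alone, and also without the 6 clusters with many genes at 0, the PT count in control was 5 and the larger PT response 3. Of all genes tested, 11.7% were higher in that PT mean, and 4.42% and 4.11% had the larger PT response. With a pseudocount of 0.1, the pattern of 4 clusters, added after the data were seen, held for 0 and 1 genes. The 1 gene higher in hKLF6OE, with and without AAI, became 0 at a minimum of 2, at thresholds of 0.5 and 1, in both of those cluster sets and with the median over clusters. No difference with AAI past the threshold in the PT mean or the other mean changed sign. The excess of *Cdkn1a* in the PT over the other clusters did with the 5 normal PT clusters, as did differences of *Sesn2* outside the PT that were under the minimum value, without the 6 clusters with many genes at 0 in control and with centring in hKLF6OE. Under the settings that can alter a single gene's difference (pseudocount, centring, scaling, cluster sets and the median over clusters), 195 differences kept their side of the threshold, 17 lost it and 8 gained it. Leaving out EC-1 and the macrophage cluster, and these with MC, was also chosen after seeing the data.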
